A study of Homo sapiens with 3 samples.

Results

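The RNA of H9 cells that was free of polysomes was compared with the total RNA of H9 cells, gene by gene. H9 is an established human embryonic stem cell line, described in the labels as pluripotent. The study hybridised 3 RNA samples to 1 Affymetrix human gene array each, and 2 of these 3 arrays make up the comparison, 1 holding the polysome-unbound pool and 1 the unfractionated total RNA. The third array, of polysome-bound RNA, enters only as a value set beside the others. No treatment, genotype change or time course is named for any sample, and the sources used here do not say whether the samples came from 1 culture or from several. Both polysome pools went through PureLink columns and the total RNA through RNeasy Plus columns, so kit and RNA source cannot be told apart. Each group has 1 array, so no difference has a replicate check and no p-value is given.

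The arrays gave levels for 18417 genes that a probe set with exactly 1 gene symbol measures, and 12066 of them passed a filter on level. The filter was a mean log2 level over the 3 arrays above 3.84, set at the 95th percentile of 482 genes of restricted tissues such as olfactory receptors. The same percentile on a single array, called background from here on, was 3.55 for unbound and 3.75 for total RNA. A relative difference is the log2 level in unbound RNA minus that in total RNA after each array was centred on its own median over the 12066 genes, 5.96 for unbound and 6.2 for total RNA. It therefore states how a transcript ranks in one RNA pool against the other, and it does not say which share of its molecules was free of polysomes. Genes were counted as higher or lower when the relative difference reached 1, which is 2-fold.

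A polysome is an mRNA that carries several ribosomes at once. The RNA left outside polysomes holds mRNAs in free ribonucleoprotein particles, mRNAs that wait to be translated or are held back, and noncoding RNAs that are never translated. How the pools were separated and whether single ribosomes and their subunits were counted as unbound are points not given in the sources used here. Messenger RNAs of secreted and membrane proteins are translated by ribosomes attached to the endoplasmic reticulum (ER). Those of the ribosome itself start with a run of pyrimidines that lets cells withdraw them from polysomes as a group when growth signals fall.

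The relative difference ran from -3.81 to 4.46 over the 12066 genes, with a median of -0.07, quartiles at -0.52 and 0.38 and an SD across genes of 0.79. At least 2-fold higher in unbound RNA were 977 genes, 8.1% of those measured, and at least 2-fold lower were 1199 genes, 9.94%. At 4-fold the counts were 146 higher and 102 lower, and at 8-fold 33 and 6, so the widest differences lay on the higher side. Protein-coding genes made up 82.3% of the higher genes and 98.7% of the lower ones. In the values as deposited, without centring, 654 genes were higher and 1926 lower, so the share of higher genes among those 2-fold apart was 25.3% in place of 44.9%. That share was 55.4% after a trend of the difference on level was removed by lowess and 51.7% after quantile normalization. Of the higher genes 78 were not above background in total RNA, and of the lower genes 38 were not above background in unbound RNA. The differences of such genes use a value within background, and where one is described a bound against the background line is given instead.

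**Figure D1:**
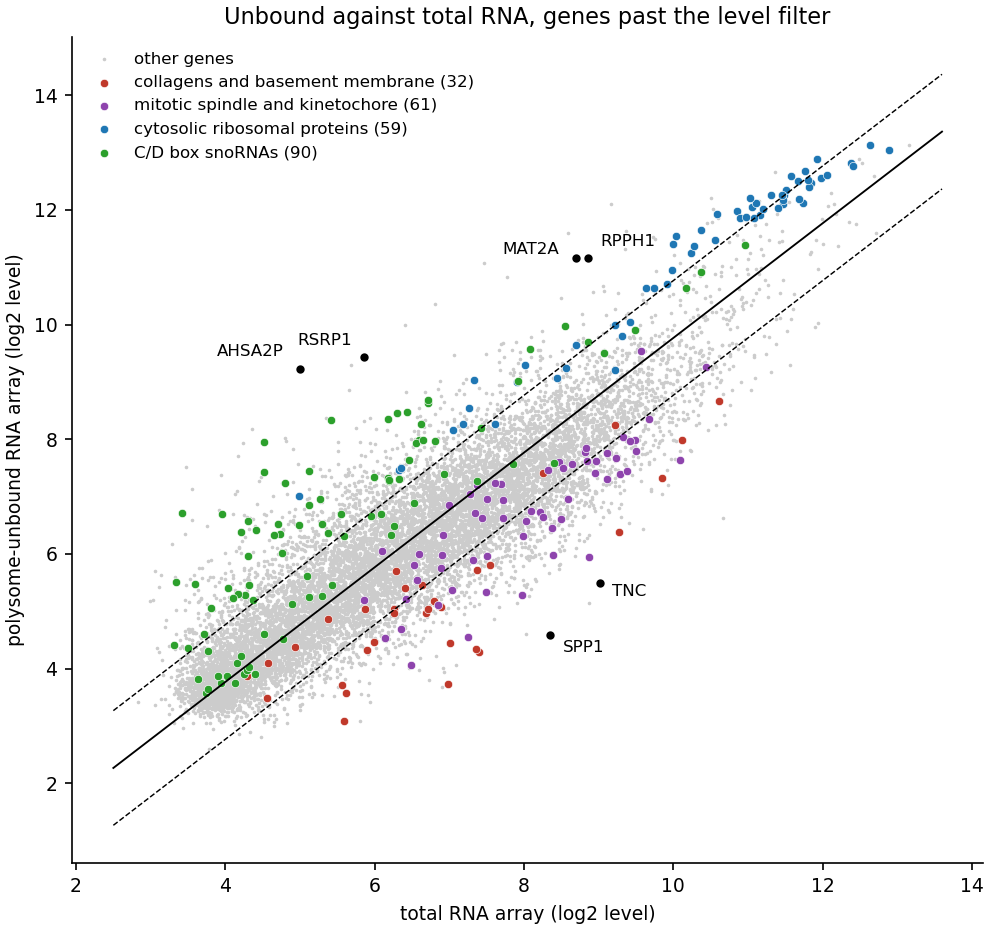
Log2 level on the polysome-unbound array (vertical) against the total RNA array (horizontal) for the 12066 genes past the level filter, with the line of equal centred level (solid) and the 2-fold lines (dashed). Collagens and mitotic genes lie below the solid line with few exceptions, ribosomal protein mRNAs and C/D box snoRNAs mostly above it, and 6 named genes are marked in black.

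Leaving out small RNAs, histones and provisional symbols such as LINC00173 (3.93), the highest relative differences belonged to a mixed group of transcripts, several of them tied to RNA splicing. AHSA2P, a pseudogene related to an activator of the chaperone HSP90, had a log2 level of 9.23 in unbound and 5.0 in total RNA, and its relative difference was 4.46. RSRP1, which codes for a protein rich in arginine and serine, was at 9.43 in unbound and 5.86 in total RNA (relative difference 3.81). RNPC3 codes for a protein of the minor spliceosome, which removes a rare class of introns. Its level was 8.02 in unbound and 4.79 in total RNA (3.46), and it fell to 2.17 when the mean of its probe sets was used. WSB1, a substrate receptor of a ubiquitin ligase, was bright on both arrays, at 11.28 in unbound and 8.23 in total RNA (3.29).

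Some of the highest genes were near background in total RNA. SNRPA1, a protein of the U2 small nuclear ribonucleoprotein, was at 7.51 in unbound RNA and at 3.48, not above background, in total RNA, so it was at least 15.9-fold higher relative to the array medians. In the same way the iron exporter SLC40A1 was at least 12.2-fold higher (7.12 against 3.56) and the manganese transporter SLC30A10 at least 8.46-fold higher (6.6 against 3.55). MTND2P28, with a relative difference of 3.79, is a nuclear copy of a mitochondrial gene, and its probes may not tell it from the mitochondrial RNA. The others among the 15 highest were above background on each array. ZNF767P, a zinc finger pseudogene, was at 8.17 in unbound, 4.35 in total and 6.57 in bound RNA (4.06). The zinc finger genes ZCCHC18 and ZNF577 were at 7.37 and 7.97 in unbound and at 3.94 and 4.81 in total RNA (3.67 and 3.39). LY6G5B, from the major histocompatibility region, was at 8.36 in unbound, 5.35 in total and 7.08 in bound RNA (3.25). HDHD3 (3.17), PRRT2 (3.15) and the membrane protein TMEM50B (3.15) closed the group. Each of the 15 ranked highest in unbound and lowest in total RNA after centring. Polysome-bound RNA stood above total RNA for each of these 15 transcripts as well, by relative differences from 0.11 for ZCCHC18 to 2.96 for SLC30A10. Both comparisons use the same total RNA array, so a low value there raises both.

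At the other end stood transcripts of secreted and membrane proteins. SPP1, the secreted matrix protein osteopontin, was at 4.59 in unbound and 8.35 in total RNA, a relative difference of -3.53. The receptor phosphatase PTPRZ1 was at 5.14 in unbound and 8.87 in total RNA (-3.50). Tenascin C, the matrix glycoprotein coded by TNC, was at 5.49 and 9.01 (-3.29). Bound RNA held SPP1 at 6.37, PTPRZ1 at 8.03 and TNC at 7.78. They were followed by the ectoenzyme ENPP1 (-3.20), the collagen chain COL5A2 (-3.02), the neuropeptide galanin (GAL, -2.98), the protease inhibitor SERPINE2 (-2.93) and the basement membrane collagen COL4A1 (-2.88). Also among the 15 was COL4A2, whose gene lies head to head with COL4A1, with 4.34 in unbound and 7.35 in total RNA (-2.775). The remaining ones were the smooth muscle actin ACTG2 (-2.81), TM4SF18 (-2.74), the kinetochore protein CENPF (-2.70), the angiopoietin receptor TEK (-2.70), the integrin ITGA3 (-2.67) and the laminin LAMC1 (-2.66). All but ACTG2 and CENPF code for proteins that are secreted or sit in membranes. In bound RNA these 15 genes were below total RNA too, by relative differences from -3.01 for SPP1 to -1.14 for LAMC1, against the same total RNA array.

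**Figure D2:**
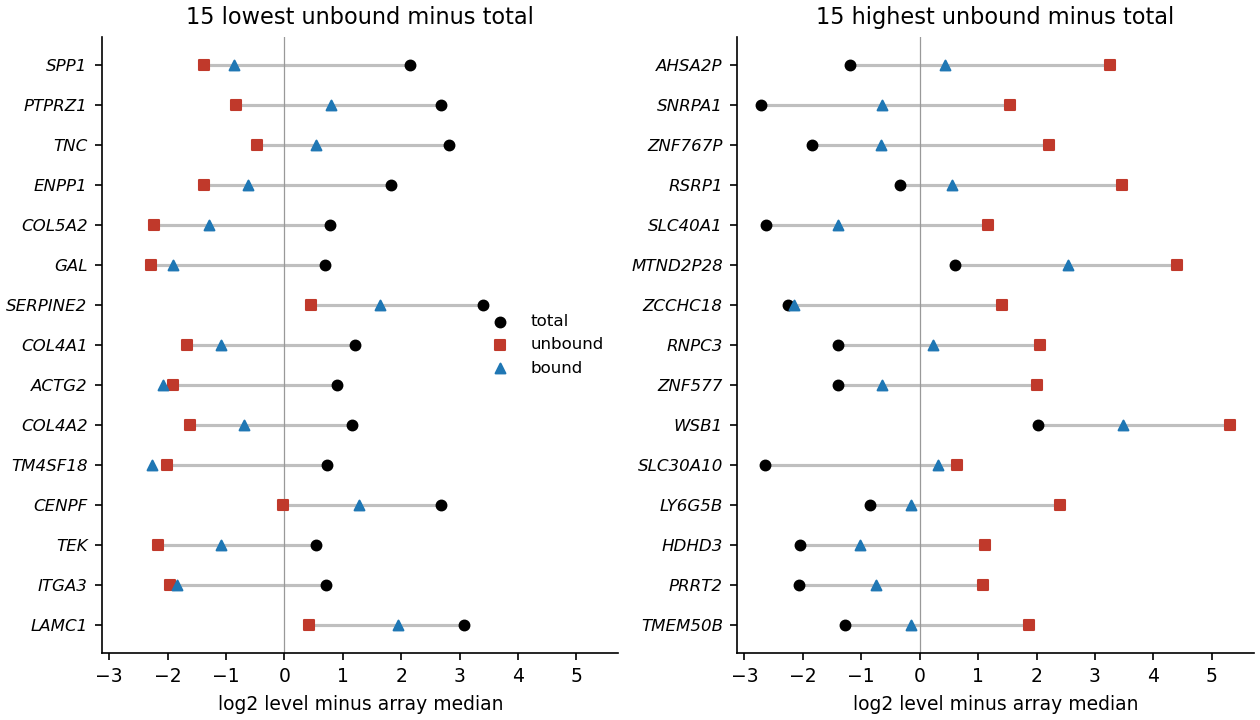
Log2 level minus the array's own median for the 15 lowest (left) and 15 highest (right) genes by unbound minus total RNA (small RNAs, histones and provisional symbols left out), with 1 point per array: total RNA (black circles), unbound RNA (red squares) and bound RNA (blue triangles). The bound value falls between the others for each gene except ACTG2 and TM4SF18, where it is the lowest of the 3 arrays.

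Collagens and basement membrane genes were lower in unbound RNA as a list. Of 37 on the array 32 passed the filter, 20 were at least 2-fold lower and 0 were higher, with a median relative difference of -1.40 against -0.07 over all genes. No member was above 0, and the highest was COL6A3 at -0.18. COL1A1 and COL1A2, the chains of type I collagen, stood at 7.32 and 7.99 in unbound RNA and at 9.86 and 10.11 in total RNA, with relative differences of -2.30 and -1.89. Of the 7 fibrillar collagen chains 6 were lower, and the exception was COL3A1 (-0.33). Among the 4 type IV chains, which form the sheet of basement membranes, COL4A1 and COL4A2 were lower, while COL4A5 (-0.35) and COL4A6 (-0.77) did not reach 2-fold. The linker protein nidogen 1 (NID1) was at 4.44 in unbound and 7.01 in total RNA (-2.33), and of 5 laminin chains 3 were lower. The levels of this list in total RNA ranged from 4.28 to 10.6, so the low values in unbound RNA were not limited to dim genes.

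The other secreted matrix proteins and growth factors gave 22 lower and 1 higher among 52 that passed, with a median of -0.91. The matrix genes FBLN1 (-2.53), FBN1 (-2.25) and the gelatinase MMP2 (-2.16) were among the lowest after SPP1, TNC and SERPINE2. Fibronectin (FN1), one of the brightest, was at 8.64 in unbound and 10.38 in total RNA (-1.5). The exception on the higher side was DKK1, a secreted WNT inhibitor, at 5.26 in unbound and 4.09 in total RNA (1.41). Signalling ligands such as BMP4 (0.66), BMP2 (0.44), VEGFA (0.34) and FGF2 (-0.04) did not reach 2-fold.

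Cell surface receptors and adhesion proteins gave 31 lower and 1 higher of 85, with a median of -0.81. The integrins, which tie cells to the matrix, had 8 lower and 1 higher of 13 and a median of -1.27, counted over all integrin chains past the filter. The higher one was ITGB6, which is not among the 85 and was not above background in total RNA (3.49). ITGAV, a partner of several integrin chains, was at 6.64 in unbound and 9.30 in total RNA (-2.42), and ITGA6, a laminin receptor of stem cells, was at 6.65 and 9.05 (-2.17). The activin receptor ACVR2B was at 5.96 and 8.68 (-2.48), while in bound RNA its relative difference from total RNA was 0.08. The related ACVR2A was at 7.81 and 7.66 (0.38), so the receptors of 1 ligand family were not alike. NOTCH1, NOTCH2 and NOTCH3 lay at -2.18, -1.68 and -1.71. ROBO2, an axon guidance receptor, was the single one of the 85 at least 2-fold higher (1.11).

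The machinery that receives and folds these proteins in the ER was low in part. Of 51 ER chaperone and translocon genes 18 were lower and 0 higher, with a median of -0.45. The lowest were the luminal chaperones and disulfide isomerases PDIA4 (7.80 in unbound and 10.24 in total RNA, -2.21), HYOU1 (-2.14), HSP90B1 (-2.03) and HSPA5, also called BiP, at 8.42 and 10.67 (-2.02). The highest values, none at 2-fold, were 0.98 for HERPUD1, a stress-induced ER protein, 0.82 for the translocon-associated SSR2 and 0.81 for the signal peptidase subunit SEC11A. Of 32 lysosomal genes 9 were lower, led by the protease CTSC (-2.26) and the lipase LIPA (-2.23), and IDS (1.75) was higher. Of 53 glycosylation enzymes 9 were lower, led by UGGT1 (-2.43), the sensor of misfolded glycoproteins, and ALG2 (1.01) was higher. Cholesterol synthesis and uptake, where several but not all of the enzymes sit in the ER, gave 7 lower and 0 higher of 21, with DHCR7 lowest (-2.01).

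Cytosolic ribosomal protein mRNAs were high in unbound RNA. Of 59 on the array all passed the filter, 38 were at least 2-fold higher and 0 lower, and the median relative difference was 1.13. All 59 lay above 0, from RPL19 at 0.22 to RPL32 at 2.25, and 58 did so as deposited and after lowess, where RPL5 was at -0.27. The count at least 2-fold higher was 21 as deposited, 28 after lowess and 27 after quantile normalization. RPS3 illustrates the brightest members, with 13.13 in unbound and 12.63 in total RNA (0.73). RPS21 was at 9.04 and 7.34 (1.94), and RPS13 at 11.55 and 10.04 (1.75). Small subunit genes (14 of 22 higher, median 1.03) and large subunit genes (24 of 37, median 1.15) gave similar counts. In bound RNA the list had a median of -1.44 relative to the same total RNA array. Ribosomal protein genes have many processed pseudogenes, and probe sets may take up signal from those that are transcribed.

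A further 35 mRNAs known to carry a terminal oligopyrimidine tract, the TOP motif, gave 12 higher and 0 lower, with a median of 0.66. All of these lay above 0 after centring, 31 as deposited and 33 after lowess, and as deposited 7 were higher. The prefoldin subunit PFDN5 was at 9.88 in unbound and 8.24 in total RNA (1.88). CIRBP (1.54), a cold-inducible RNA-binding protein, the initiation factor subunit EIF3F (1.5) and TPT1 (1.5), which codes for the translationally controlled tumour protein, followed. The elongation factor EEF1A1, the brightest at 13.13 and 13.16, was near the median of all genes with 0.20, and at -0.51 after lowess. TOMM20 (0.05) was lowest.

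The sequences around the annotated starts of some of these genes show the motif. Each window is 30 bases of the RefSeq assembly GRCh38.p14, from 10 bases before the annotated start to 20 bases from it, written 5′ to 3′ on the gene's strand. Capitals mark a pyrimidine run that begins with C at the annotated start and goes on for at least 4 bases that are each C or T. The first 5 were at least 2-fold higher in unbound RNA, the next pair near the median of all genes, and the last 3 hold no such run at the annotated start.
RPS21, chr20:62387093-62387122, plus strand: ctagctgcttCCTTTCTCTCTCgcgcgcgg
RPS13, chr11:17077648-17077677, minus strand: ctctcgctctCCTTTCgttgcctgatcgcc
PFDN5, chr12:53295532-53295561, plus strand: gagagacttcCTCTTCgttaagtcggcctt
EIF3F, chr11:7987327-7987356, plus strand: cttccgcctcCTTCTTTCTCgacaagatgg
TPT1, chr13:45341164-45341193, minus strand: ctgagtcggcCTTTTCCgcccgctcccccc
TOMM20, chr1:235128818-235128847, minus strand: tgtgctcggcCTTTCTgtgttcctggcccg
EEF1A1, chr6:73521013-73521042, minus strand: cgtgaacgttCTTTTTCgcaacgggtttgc
RPL19, chr17:39200273-39200302, plus strand: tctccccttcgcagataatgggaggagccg
EIF3B, chr7:2354817-2354846, plus strand: tcgcacgcacatggctgggctgtagccgtc
EIF4G1, chr3:184314596-184314625, plus strand: gcggggagccggaaatggttgtggactacg

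The run was looked for on the gene's strand at the annotated start only, and 4.04% of 27305 promoters in the RefSeq table hold it. It was found in 34 of 50 ribosomal protein genes matched to the table (68%) and in 20 of 27 other TOP genes (74.1%). Within the ribosomal protein list the median relative difference was 1.03 with the run and 1.24 without it, and the share at least 2-fold higher was 64.7% and 75%. Among the other TOP genes the medians were 0.61 and 0.63, and 8 of 20 with the run (40%) and 1 of 7 without it (14.3%) were higher. Outside both lists the run was present in 462 of 9528 protein-coding genes. Of these 462 genes 64 (13.9%) were at least 2-fold higher, against 575 of 9066 (6.34%) without the run, and the medians were 0.16 and -0.11. An annotated start can differ by some bases from the start used in these cells, and a match is a description of these letters.

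The translation initiation factors did not follow the ribosomal proteins. Of 32 that are not in the TOP list 7 were at least 2-fold lower and 0 higher, with a median of -0.34. The GTPase EIF5B, which joins the ribosomal subunits, was at 6.87 in unbound and 9.30 in total RNA (-2.19). The scaffold EIF4G1 was at 6.64 and 8.79 (-1.92). Subunits of the eIF3 complex were spread over a wide range: EIF3B (7.27 and 9.56, -2.06) and EIF3A (9.0 and 10.91, -1.68) were lower, while EIF3F and EIF3L (1.25), which are TOP mRNAs, were higher. The median of the 12 eIF3 subunits was 0.72. EIF3B and EIF4G1 have no pyrimidine run in the windows printed above. Of 19 cytosolic tRNA synthetases 6 were lower and 0 higher, with VARS1 lowest (-1.91), and QARS1 (1.0) was highest, just short of 2-fold.

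**Figure D3:**
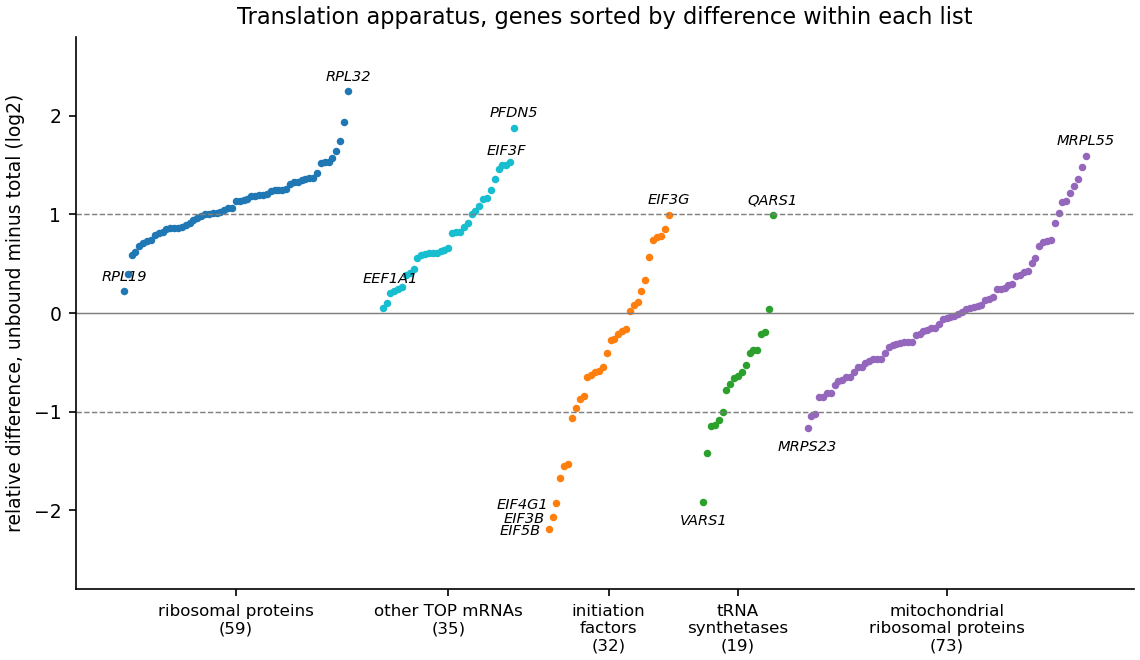
Relative difference of unbound minus total RNA (log2) for each gene of 5 lists of the translation apparatus, sorted within each list, with dashed lines at 2-fold. All 59 ribosomal protein genes and all 35 other TOP mRNAs lie above 0 (58 and 33 after lowess), whereas initiation factors and mitochondrial ribosomal proteins lie on both sides of it.

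Transcripts of splicing regulators were found on both sides, but only their higher share stood apart from that of all genes. Of 42 genes for SR proteins, which bind exons and recruit the splicing machinery, and for the CLK kinases that phosphorylate them, 12 were at least 2-fold higher and 5 lower. These were 28.6% and 11.9%, against 8.1% and 9.94% over all genes, so the lower share was near that of all genes. The median was 0.01, and it was -0.22 as deposited. Besides RSRP1, the highest were U2AF1L4 (7.37 in unbound and 5.30 in total RNA, 2.30), ARGLU1 (9.66 and 7.69, 2.21) and SRSF5 (11.50 and 9.75, 1.98). The kinase CLK1 was at 8.0 and 6.55 (1.69). The 3 lowest were THRAP3 at 7.52 and 9.36 (-1.60), BCLAF1 at -1.32 and SON at 7.46 and 8.87 (-1.18).

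Among 30 genes known for detained introns or nuclear retention of their transcripts, 13 were higher and 1 lower, with a median of 0.72. Detained introns keep a polyadenylated transcript in the nucleus until they are spliced. This list contains AHSA2P and ZNF767P, and it was drawn up with earlier results of these arrays known. MAT2A makes S-adenosylmethionine, and an intron of its transcript is retained when that product is plentiful. Its level was 11.17 in unbound and 8.69 in total RNA (2.71), and in bound RNA it was -0.37 relative to total RNA. The cyclin CCNL2, a splicing cofactor, was at 8.31 and 5.85 (2.69), and its paralog CCNL1 had a relative difference of 1.52. Not every member moved, with OGT at -0.06, TIA1 at 0.06 and PAN2 lower at -1.17. The arrays do not separate spliced from unspliced forms in these values.

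Core spliceosome and hnRNP proteins, the constitutive part of the same machinery, leaned to the other side, with 19 lower and 4 higher of 65 and a median of -0.54. The catalytic centre protein PRPF8 was at 7.81 in unbound and 10.23 in total RNA (-2.18), and the helicase SNRNP200 at 7.66 and 9.97 (-2.08). SNRPA1, given above as a lower bound, PRPF39 (1.46), HNRNPDL (1.22) and SF3A2 (1.20) were the higher ones.

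Zinc finger transcription factors of the ZNF series formed the largest list, with 411 past the filter. Of these 79 were higher and 5 lower, 325 lay above 0, and the median was 0.48 (0.24 as deposited, where 54 were higher and 8 lower). ZNF767P and ZNF577 led it, and ZNF692 (7.54 in unbound and 5.17 in total RNA, 2.60) came next. ZNF106 (-1.84), ZNF462 (-1.25) and ZNF318 (-1.24) were lowest. Of 35 immediate early and unstable mRNAs 7 were higher and 1 lower, with a median of 0.50. IER3 was at 7.62 in unbound and 6.03 in total RNA (1.82), and ID1, an inhibitor of basic helix-loop-helix factors that BMP signals induce, was at 7.93 and 6.37 (1.8). MDM2, the ubiquitin ligase of p53, was lower (-1.06).

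Noncoding RNAs that work in the nucleus or nucleolus held some of the highest relative differences. Of 90 C/D box snoRNAs, a class that includes guides of ribosomal RNA methylation, 54 were higher and 0 lower, with a median of 1.32. Of 60 H/ACA snoRNAs and Cajal body RNAs 32 were higher and 1 lower (1.11). SNORD49A was at 7.95 in unbound and 4.51 in total RNA (3.67), and SNORD96A was higher by at least 9.22-fold, since its 3.41 in total RNA was not above background. With no filter on level 51 of all 115 C/D box and 32 of all 77 H/ACA and Cajal body RNAs on the array were higher, with medians of 0.76 and 0.73. The Cajal body RNAs, which guide the modification of spliceosomal RNAs, had 10 of 12 higher and a median of 1.94. SCARNA9 (10.83 and 7.77, 3.29), SCARNA7 (3.24) and SCARNA17 (12.10 and 9.16, 3.17) were bright in unbound RNA. The SNORD116 group, which comes from an imprinted cluster, gave 9 higher of 19, while the SNORD115 group of the same region gave 0 of 9. Members of these groups are near copies of each other and share signal.

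The spliceosomal RNAs gave 12 higher and 1 lower of 18. RNU4-1, a U4 RNA, was at 9.99 in unbound and 6.40 in total RNA (3.83), and RNU2-1, the U2 RNA, at 11.31 and 9.35 (2.2). RNAs of the minor spliceosome were higher too, with RNU4ATAC at 2.66, RNU11 at 2.16 and RNU6ATAC at 1.08. The U5 variants were not, and RNU5D-1 was the lowest of all genes, at 6.62 in unbound and 10.67 in total RNA (-3.81). RNU5E-1 was at -0.35, RNU5B-1 at -0.15, RNU5A-1 at 0.02 and RNU5F-1 at 0.14, and these copies are alike in sequence, so their probes may share signal. Of the 18 spliceosomal RNAs 15 were above background in total RNA. With no filter on level 11 of all 23 on the array were higher, with a median of 0.99. With the filter at the 99th percentile of background the median of this list moved from 1.27 to 0.69.

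Of 7 catalytic and scaffold RNAs on the array 4 were higher, with or without the filter on level. RPPH1, the RNA of RNase P that trims tRNA precursors, was at 11.16 in unbound and 8.86 in total RNA (2.53). RMRP, of the related RNase MRP, was at 12.21 and 10.51 (1.93). The telomerase RNA TERC was at 7.36 and 5.61 (1.98), and the vault RNA VTRNA1-3, whose 3.05 in total RNA was not above background, was higher by at least 4.54-fold and passed the filter only through its level in unbound RNA. Of 14 long noncoding RNAs, a list that also holds RPPH1, RMRP and TERC, 5 were higher and 1 lower. LINC00173 was at 7.93 and 4.24 (3.93), whereas the abundant nuclear MALAT1 was at 10.56 and 10.31 (0.49). Among transcripts that host snoRNAs or are cleared by nonsense-mediated decay 6 of 21 were higher (28.6%, against 8.1% of all genes) and 1 lower. The median of this list was 0.14, and 11 of the 21 lay above 0. As deposited the median was -0.10, with 4 higher and 3 lower. SNHG17 (2.97, or 2.04 with the mean of its probe sets), EPB41L4A-AS1 (2.12) and ZFAS1 (1.88) were the highest of the noncoding hosts, and the decay helicase UPF1 itself was lowest (-1.73). The transcription factor ATF4, whose mRNA is held back by upstream reading frames, was at 10.44 and 9.60 (1.07).

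Only 28 of 148 microRNA precursors on the array passed the filter, and 4 of these were at least 2-fold higher and 0 lower. The higher share was 14.3%, against 8.1% of all genes, and the list median was -0.04. Among the 4, MIR21 passed only through its level in unbound RNA. With no filter on level 4 of all 148 were higher, beside 834 of all 18417 genes, and the list median was -0.16. The precursors as a list were thus not high in unbound RNA. The 4 and MIR302B are shown by the mature microRNA of their main arm, from RefSeq with positions in GRCh38.p14, 5′ to 3′, with the seed (bases 2 to 8) in capitals. The probes measure the precursor or its host transcript, not the mature microRNA.
hsa-let-7f-5p of MIRLET7F1, chr9:94176353-94176374, plus strand: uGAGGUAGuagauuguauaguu
hsa-let-7i-5p of MIRLET7I, chr12:62603691-62603712, plus strand: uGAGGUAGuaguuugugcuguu
hsa-miR-302a-3p of MIR302A, chr4:112648186-112648208, minus strand: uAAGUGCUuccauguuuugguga
hsa-miR-302b-3p of MIR302B, chr4:112648489-112648511, minus strand: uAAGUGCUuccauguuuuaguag
hsa-miR-21-5p of MIR21, chr17:59841273-59841294, plus strand: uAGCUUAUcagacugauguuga

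The pair of let-7 microRNAs shares one seed and the pair of miR-302 microRNAs another. MIRLET7F1 was at 7.71 in unbound and 4.16 in total RNA (3.78), and MIRLET7I at 4.90 and 3.95 (1.19). The let-7 family promotes differentiation, and LIN28A, the protein that blocks its maturation in stem cells, was at 10.98 and 11.10 (0.11). MIR302A, of the cluster that marks human pluripotent cells, was at 7.82 and 6.24 (1.82), while MIR302B of the same cluster was at 7.32 and 6.92 (0.64) and did not reach 2-fold. MIR21 was at 4.65 in unbound RNA and not above background in total RNA (3.47), so it was higher by at least 2.2-fold, and it passed the filter only through unbound RNA.

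Genes of mitosis were low in unbound RNA as a list. Of 61 past the filter 33 were at least 2-fold lower and 0 higher, with a median of -1.11, and after lowess 24 were lower with a median of -0.85. CENPF, among the 15 lowest, was at 5.94 in unbound and 8.88 in total RNA. The kinesin KIF20B was at 4.55 and 7.25 (-2.47), the condensin subunit SMC2 at 5.28 and 7.97 (-2.45) and topoisomerase TOP2A at 7.63 and 10.09 (-2.22). All 6 SMC proteins were lower, with a median of -1.78. The spindle checkpoint gene BUB3 (0.20), CDCA3 (0.19) and ZWINT (0.08) were the highest. In bound RNA the list had a median of -1.08 relative to the same total RNA array, and both polysome pools share the purification kit.

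DNA replication genes gave 15 lower and 0 higher of 52, with a median of -0.61. Of the 6 MCM helicase subunits 5 were lower, MCM2 lowest at 5.94 in unbound and 8.10 in total RNA (-1.92), and MCM7 (-0.65) was the exception. TIMELESS, a fork protection factor, was at 6.2 and 8.47 (-2.03). Chromatin remodellers and histone modifiers gave 24 lower and 1 higher of 68, with a median of -0.67. The CHD family of remodellers had 6 of 8 lower, among them CHD8 at 5.98 and 8.15 (-1.95) and CHD7 at 7.18 and 9.22 (-1.8), and CHD2 was above 0 (0.46). The exception on the higher side was the acetyltransferase KAT2A, at 7.93 and 5.93 (2.23). In bound RNA the chromatin list had a median of -0.17 relative to total RNA, beside -0.14 over all protein-coding genes, whose median in unbound RNA was -0.09.

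Replication-dependent histone mRNAs end in a stem-loop instead of a poly(A) tail. Of 51 past the filter 6 were higher and 1 lower, 11.8% and 1.96% against 8.1% and 9.94% over all genes. The median was -0.05, and as deposited 6 were lower. H4 genes held 4 of the 6, led by H4C4 at 11.07 in unbound and 7.47 in total RNA (3.83) and H4C2 at 11.64 and 9.37 (2.5). The linker histone H1-5 was the lower one, at 8.86 and 11.04 (-1.94), and the 5 H1 genes had a median of -0.87. Histone genes of a class are near-identical, so the probe sets may share signal, and H4C14 and H4C15 have the same values on each array.

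Lists of abundant housekeeping mRNAs mostly had medians below that of all genes. Glycolysis enzymes gave 6 lower and 0 higher of 16, from PGK1 (9.16 in unbound and 11.31 in total RNA, -1.91) to GAPDH (12.82 and 12.53, 0.52, or -0.06 after lowess). Proteasome subunits gave 6 lower (19.4%) and 0 higher of 31, with PSMD2 lowest (-1.90). The actin and tubulin list gave 14 lower and 1 higher of 40, with the myosin heavy chain MYH10 at -2.37, ACTB at 11.75 and 12.45 (-0.47) and ARPC1A at 1.44. Of 33 cytosolic chaperones 6 were lower (18.2%) and 1 higher, with HSP90AA1 at -1.71 and its paralog HSP90AB1 at -0.02. The lower shares of proteasome and chaperone genes were near the 17% in the brightest of 5 groups of protein-coding genes by mean level. Mitochondrial ribosomal proteins, in contrast to the cytosolic ones, gave 8 higher (11%) and 3 lower (4.11%) of 73 with a median of -0.05. Nuclear-encoded oxidative phosphorylation subunits gave 4 higher (5.41%) and 9 lower (12.2%) of 74, with UQCRH highest (1.35) and ATP5MC1 lowest (-1.58). Over all genes the shares were 8.1% higher and 9.94% lower, so the higher shares of these mitochondrial lists were near that of all genes.

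Counts of some lists moved with the scaling by more than 1.5 times. After lowess the lower genes numbered 2 of 19 tRNA synthetases, 3 of 31 proteasome subunits, 9 of 40 actin and tubulin genes and 4 of 21 cholesterol genes. As deposited they numbered 23 of 52 replication genes, 11 of 31 proteasome subunits, 10 of 33 cytosolic chaperones and 15 of 74 oxidative phosphorylation subunits. Mitochondrial ribosomal proteins had 4 higher and 7 lower of 73 as deposited, and 10 higher and 1 lower after lowess. Oxidative phosphorylation subunits had 1 higher as deposited, and after lowess their balance turned to 9 higher and 4 lower. Immediate early mRNAs had 4 higher of 35 as deposited. Among glycosylation enzymes 14 of 53 were lower as deposited, and among yolk sac and liver transcripts 5 of 16 were higher. Collagens and the C/D box, H/ACA and small nuclear RNA lists kept their counts within 1.5 times as deposited, after lowess and after quantile normalization.

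The labelled cell type was checked against marker lists, and their members were then compared between the pools. Of 49 pluripotency genes on the array 40 were above background in each of the 3 pools. SOX2 was at 8.56 in unbound and 9.50 in total RNA, and 9 genes, among them NODAL, GDF3, LEFTY1 and KLF4, were at background in both. The summed linear signal of the 49 was 8450 in unbound and 15173 in total RNA. POU5F1 and NANOG are on probe sets with several gene symbols and were not measured here. Of the 40 past the filter 14 were lower in the unbound pool by 2-fold or more and 2 higher, with a median of -0.74. CRIPTO, a Nodal co-receptor, was at 5.73 and 8.47 (-2.5), the surface protein PODXL at 7.46 and 9.92 (-2.23) and the DNA methyltransferase DNMT3B at 6.82 and 9.04 (-1.98). OTX2, a regulator of primed pluripotency, was at 9.56 and 8.22 (1.58), and PRDM1 at 6.58 and 5.78 (1.03). In bulk RNA, fewer cells of a type and less of their RNA in a pool cannot be told apart.

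Markers of other cell types were compared in the same way. Of 20 yolk sac and liver endoderm transcripts 15 were above background in unbound, 14 in bound and 9 in total RNA, and their summed linear signals as deposited were 593, 1789 and 514. Albumin (ALB), AHSG, APOH, FGA and TF were at background in both unbound and total RNA. Of 16 past the filter 8 were higher and 1 lower, with AFP at least 4.19-fold higher (5.58 against 3.68) and APOA2 at 5.55 and 3.76 (2.02). Only 9 of these 16 were above background in total RNA, and the filter uses the levels of the polysome pools too. With no filter on level 7 of all 20 were higher, and the median was 0.48 in place of 0.81. Of 18 markers of trophoblast and amnion 15 exceeded background in unbound and 12 in total RNA, with summed signals of 5265 and 5126, most of it from KRT8 and KRT18. TFAP2A (8.16 and 6.16, 2.23), TFAP2B (2.15), GATA3 (1.38) and VTCN1 (1.21) were higher, and CGA and ERVW-1 were at background. Germ layer markers gave 2 higher and 2 lower of 17 past the filter, with a median of -0.10, near the shares and the median of all genes. Of 23 on the array 16 were above background in unbound and 17 in total RNA, with summed signals of 1222 and 1245. GSC, TBXT, TBX6, HAND2 and NEUROG2 were at background in both. PAX6, a neural and eye regulator, was at 7.48 and 5.27 (2.44), PAX3 was also higher (1.40), and NES (-2.37) and KDR (-1.73) were lower. Of 17 fibroblast markers 16 were above background in unbound and 15 in total RNA, with summed signals of 2699 and 4758, and 6 of 16 were lower, collagens and FBN1 among them. Some of these markers are also in the matrix lists above. The part of other cell types in the differences of any list was not tested.

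Gene class and gene size gave a further view of the same values. By RefSeq class, 55.1% of 136 snoRNAs, 66.7% of 18 small nuclear RNAs and 26% of 146 long noncoding RNAs past the filter were at least 2-fold higher. Among 11499 protein-coding genes the share was 6.99%. The filter uses the unbound level too, so dim RNAs that are high there pass more easily. Above background in total RNA were 119 of the 136, 15 of the 18 and 123 of the 146. With no filter on level 11 of all 23 small nuclear RNAs on the array were higher. Among protein-coding genes sorted by genomic span into 5 groups of equal size, the share that was higher fell from 12.1% for spans up to 9.99 kb to 4.91% for spans over 100.2 kb. The share that was lower went from 4.13% to 13.7%, and the medians of the groups from 0.09 to -0.15. Sorted by mean level on the 2 arrays, the share that was lower went from 2.17% in the dimmest of 5 such groups to 17% in the brightest. The bright lists with negative medians, such as mitotic, ER and spliceosome genes, are therefore to be read beside their values after lowess, -0.85, -0.35 and -0.33. Ribosomal protein genes, the brightest list, lay on the opposite side of that trend.

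**Figure D4:**
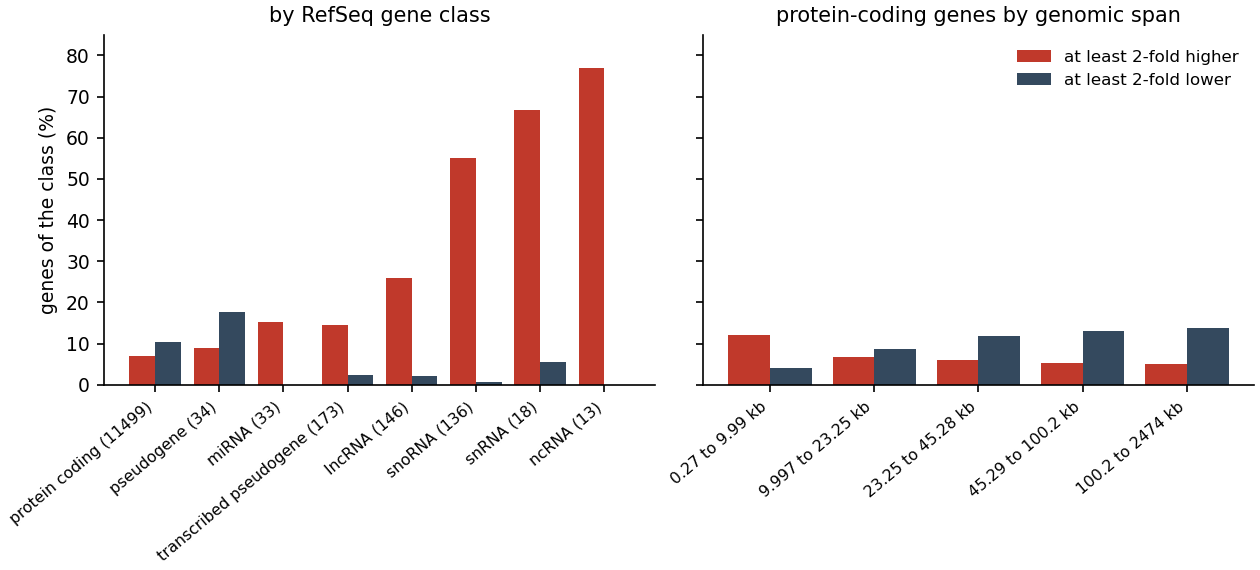
Share of genes at least 2-fold higher (red) and lower (dark) in unbound than in total RNA, by RefSeq gene class with the number of genes past the filter (left) and for protein-coding genes in 5 groups of equal size by genomic span (right). The snoRNA and small nuclear RNA classes reach 55.1% and 66.7% on the higher side and the microRNA class 15.2%, and among protein-coding genes the group with the shortest spans is the one with more higher than lower genes. The filter uses the unbound level too, and with no filter 11 of 23 small nuclear RNAs were higher. The list of microRNA precursors, a different set from the microRNA class of 33, had 4 of 28 higher with the filter and 4 of 148 without it.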

How the data were processed

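The values used are log2 expression values of probe sets, as the authors deposited them for each array. Partek 6.5 and RMA appear in the submitters' processing notes. How arrays were scaled to each other was not given there, the columns do not share a distribution, and no genome build is named. Signal over background, and the single array a group, limit the precision.

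Of 33297 probe sets, 19460 list 1 gene symbol, 1754 several and 12083 none in the platform annotation GEO holds, and only the first were named. RefSeq (GRCh38.p14) matched 19429 gene IDs and gave class, span, promoters and mature microRNAs. For 769 genes with several probe sets the one with the highest mean was kept. Arrays were centred on their medians over the filtered genes. A gene not above background on the dimmer array is given as a bound against that array's background.

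Named were the 15 highest and 15 lowest genes (without small RNAs, histones, background genes and provisional symbols), up to 3 members at either end of each list, and a fixed set. Other names were chosen after their values were seen. The comparison and the lists were chosen with earlier results of these data known. Alternatives covered the filter, centring, scaling, probe set choice and fold. A planned comparison by hydrophobic stretches of the proteins was not run, since no protein table was used here. Scripts were tested on simulated data, with pandas 2.3.3, numpy 2.4.6, matplotlib 3.10.9 and statsmodels 0.14.6 under Python 3.11.15.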

Additional observations from a re-analysis of the deposited data

How the results depend on the processing

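As deposited, without centring, the genes lower by 2-fold or more numbered 1926. At 1.5-fold 2114 genes were higher and 2686 lower, and at 3-fold 309 and 314. The other filters, centring on all genes, quantile normalization, lowess and both probe set rules kept each count within 1.5 times. The 6 list medians of at least 1 in size among 38 lists kept their sign in 9 settings, and the 159 named genes of at least 1 among 245 in those of the 9 that retained the gene. In all, 2 list medians and 6 named genes moved by 0.5 or more, and the cause was not tested. The comparison by hydrophobic stretches and its alternatives were not run. No paired analysis was possible because each group has 1 array, and for the same reason no array could be left out. Differences of genes near background are limited by that signal.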
